A study of Solanum lycopersicum with 36 samples.

Results

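The 200 genes described here were those whose mRNA in tomato leaves was most specific to the sampling time labelled Dark 0h. They were chosen from the mRNA counts alone. Counts were divided by the library's total over genes and multiplied by 1000000 (CPM), and the 3 replicates of each of the 6 times were averaged. Of 34075 gene identifiers in the count tables, 2344 had their highest mean at Dark 0h with at least 10 CPM there. These were ranked by the difference, in log2(mean CPM + 1), between Dark 0h and the second highest time, and the first 200 were taken. Every mRNA difference between Dark 0h and another time was therefore used in the choice, and is given below as a description without a test. The second assay on the same times, GMUCT, took no part in the choice, and its differences were tested.

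The level of an mRNA in a leaf is set by how fast it is transcribed and how fast it is broken down. In plants a common route of breakdown starts with the loss of the poly(A) tail and of the 5′ cap, after which the transcript is degraded from its 5′ end; transcripts are also cleaved internally, for example at sites matched by small RNAs. Decapped and cleaved transcripts carry a 5′ phosphate, and GMUCT, a genome-wide map of such uncapped or cut RNAs, ligates an adapter to that end, so its reads count molecules on their way to decay rather than intact ones. Many leaf mRNAs rise and fall over a day with light and with the circadian clock.

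The leaves came from tomato plants (Solanum lycopersicum) labelled with the genotype HeinZ 1706, grown at 25 °C under 12 h of light and 12 h of dark and harvested at 4 weeks of age. The 6 times were Light 0h, Light 4h, Light 8h, Dark 0h, Dark 4h and Dark 8h, with no treatment other than the light cycle. Each time had 3 mRNA libraries, made from poly(A) RNA and sequenced as 150 nt paired ends, and 3 GMUCT libraries, made from total RNA and sequenced as 50 nt single ends, which gives 36 libraries. The labels do not say whether replicates were separate plants or pools, so each p-value measures only the spread between these libraries, which may be technical. The identifiers of the count tables matched none of the 41476 genes in the reference gene table used here, so genes are given by identifier, without names or functions, and leaf marker genes could not be checked.

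Gene counts totalled 6632784 to 27126312 per mRNA library and 15739253 to 20581411 per GMUCT library. Reads placed at more than one position were tallied on a counter line apart from the genes, which was left out of the gene totals. They made up 2.11% to 3.52% of all tallied mRNA reads and 8.60% to 40.2% of all tallied GMUCT reads. The highest share was in replicate 2 of Dark 4h. The shares also differed between times, at 19.15%, 11.9% and 26.6% in the GMUCT libraries of Dark 0h and 9.15%, 8.60% and 10.1% in those of Light 8h. Whether this bears on the comparison of those times was not tested. Counts and medians over the members that use Dark 4h in GMUCT are also given without that library. The mRNA libraries labelled Dark 0h stood apart from the rest. Across 9887 genes with at least 10 CPM in both assays, the deviation of mRNA from its own mean over the 6 times correlated with that of GMUCT at the same time with r of 0.67 to 0.78 at Light 0h, Light 4h, Light 8h, Dark 4h and Dark 8h, but r was -0.04 at Dark 0h. The GMUCT deviation at Dark 0h had r of 0.64 with the mRNA deviation at Light 8h, and the mRNA deviation at Dark 0h had r of 0.28 with GMUCT at Dark 4h. These values are a description across genes, which are not independent replicates. All 3 Dark 0h mRNA libraries define the gene set, so no value for it can be given without them. What sets those libraries apart was not tested.

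Most members had a moderate excess of mRNA at Dark 0h and a few had a large one. The ratio of (mean + 1) CPM at Dark 0h to that at the second highest time ran from 1.86 to 56.5 with a median of 2.48. It was at least 2 in 164 members, at least 4 in 34 and at least 8 in 9. Mean mRNA at Dark 0h ran from 10.2 to 8058 CPM with a median of 57.1. The last members inside the rank limit, Solyc10g086565, Solyc08g082230 and Solyc08g069060, had mean Dark 0h levels of 13.8, 166 and 130 CPM and differences of 0.89 on the log2 scale. The first genes outside it, Solyc02g087870, Solyc01g067020 and Solyc05g055540, had 42.8, 13.0 and 23.1 CPM and differences of 0.89, so the limit divides genes with nearly equal values.

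**Figure D1:**
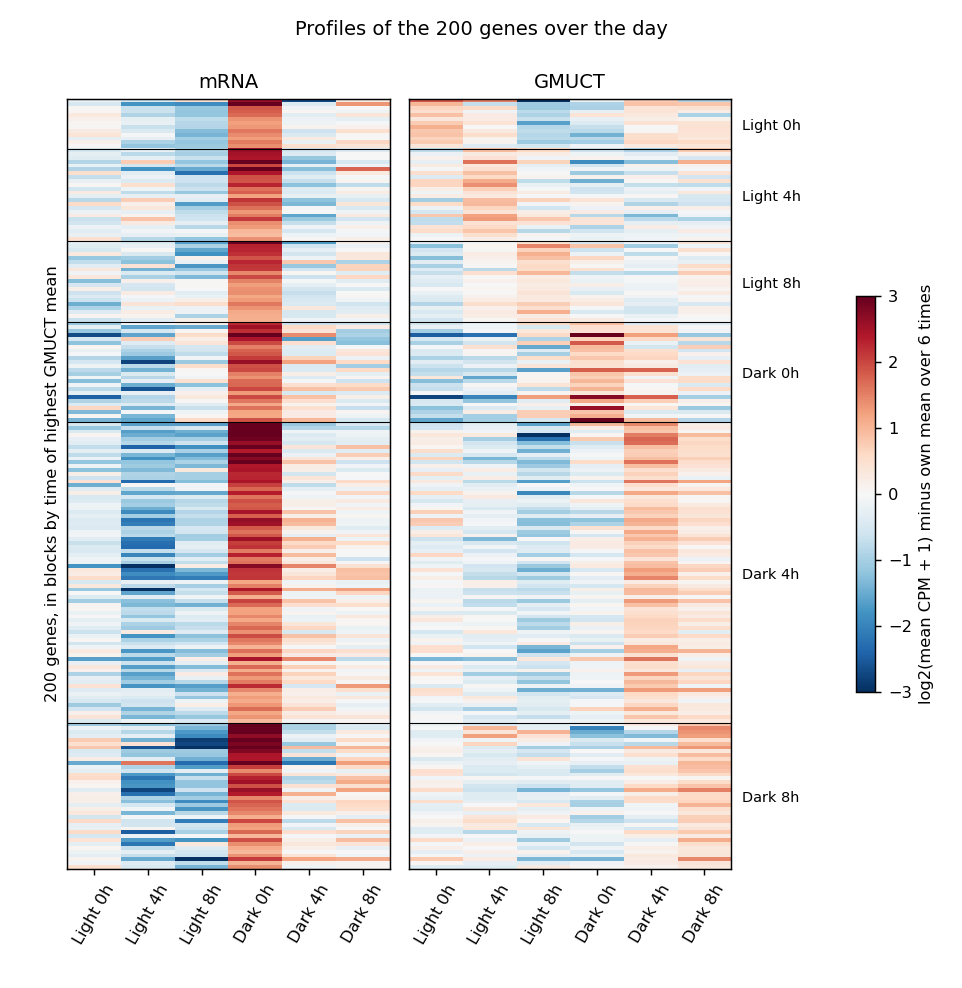
Each row is 1 of the 200 genes and each column 1 of the 6 times, with mRNA on the left and GMUCT on the right; colour is log2(mean CPM + 1) of 3 libraries minus the gene's own mean over the 6 times, and blocks group genes by the time of their highest GMUCT mean. By the choice of genes the mRNA column at Dark 0h is high throughout, while the GMUCT maximum lies at Dark 4h in 78 genes and at Dark 0h in 26.

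In 183 members all 3 Dark 0h mRNA libraries lay above all 15 libraries of the other times, against 6.14% of the 10416 genes with at least 10 CPM at Dark 0h; the rule selects for this, and nothing is read from it. In the other 17 the libraries overlapped. The highest and lowest Dark 0h library differed by a median of 1.55 times over the members. That ratio was above 3 in 13 members, with replicate 3 the highest in 8 of them and the lowest in 3. Over all members the highest Dark 0h value was in replicate 1 for 66, in replicate 2 for 39 and in replicate 3 for 95. When the 200 genes were chosen again without 1 Dark 0h library, the library left out still lay above all 15 others for 173, 187 and 180 of the genes chosen without replicate 1, 2 and 3, against 15.4%, 12.9% and 12.9% of genes with at least 10 CPM. The 15 libraries of the other times took part in each of these choices, so only the Dark 0h side was held out. In the library left out, the median chosen gene had 0.78, 0.86 and 0.93 times its mean in the Dark 0h libraries used, in the same order. Of the genes chosen in this way, 167, 179 and 168 were among the 200 members.

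The highest ranked member, gene:Solyc05g052670.1, had 297, 262 and 256 CPM of mRNA in the Dark 0h libraries. At the other 5 times its 15 libraries held 0.627 to 5.75 CPM. Its neighbour by identifier, gene:Solyc05g052680.1, ranked 3, with 60.1, 33.9 and 27.0 CPM at Dark 0h and at most 1.13 CPM in any other library. For both, every Dark 0h mRNA library lay far above all libraries of the other times.

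Ranked 2, gene:Solyc08g080670.1 had 62.8, 51.5 and 101 CPM at Dark 0h against 0.0660 to 1.21 CPM elsewhere. Ranked 4, gene:Solyc02g070890.3 had 174, 176 and 162 CPM at Dark 0h and 2.82 to 12.9 CPM at the other times. The Dark 0h libraries agreed closely for gene:Solyc02g070890.3 and were less alike for gene:Solyc08g080670.1. Solyc08g080630, ranked 5, had 29.8, 46.9 and 81.9 CPM at Dark 0h and 0 to 5.68 CPM elsewhere. Solyc08g080640, ranked 7, had 18.1, 19.4 and 40.8 CPM against 0 to 2.74 CPM. In both of these replicate 3 was the highest Dark 0h library.

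Solyc09g089930, ranked 6, had 31.0, 57.9 and 31.8 CPM of mRNA at Dark 0h and 0.0784 to 3.63 CPM at the other times. Member gene:Solyc12g096570.1, ranked 8, had 17.5, 19.9 and 14.3 CPM against 0.0660 to 1.44 CPM. Member gene:Solyc01g106620.2, ranked 9, had 37.9, 25.0 and 59.6 CPM against 0.134 to 5.56 CPM. The Dark 0h libraries of these members did not overlap with any other. Ranked 10, gene:Solyc04g040120.1 had 15.2 and 13.5 CPM in replicates 1 and 2 but 1.88 CPM in replicate 3, and was listed at 0 in all 3 Light 4h libraries. Its lowest Dark 0h library was still above the highest other one, at 0.962 CPM.

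At the other 5 times, the members' mRNA was higher in the later dark than in the light. The median member had 10.9, 6.82 and 7.46 CPM at Light 0h, 4h and 8h, and 57.1, 15.3 and 15.4 CPM at Dark 0h, 4h and 8h. The second highest time was Dark 8h in 74 members and Dark 4h in 73, together 147 of 200, and the lowest time was Light 4h in 88 and Light 8h in 65. A level under 5 CPM at each of the other 5 times was found in 28 members and under 1 CPM in 2. These levels took part in the choice of genes, and no shares over other genes are given beside the counts. Whether the pattern is particular to the members was not tested. Since the bulk leaf was sampled, more cells of a type and more RNA per cell cannot be told apart in any of these levels.

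Among the members with the most mRNA at Dark 0h, gene:Solyc02g086458.1 had 9908, 7623 and 6642 CPM there and 2186 to 3873 CPM at Dark 4h, its second highest time. Member gene:Solyc08g078670.2 had 1640, 1797 and 2045 CPM at Dark 0h against 383 to 1015 CPM elsewhere. Solyc04g076880 had 1329, 1381 and 2703 CPM against 52.9 to 576 CPM, with replicate 3 far above the other Dark 0h libraries. Solyc04g007000 had 926, 1397 and 1611 CPM at Dark 0h, 292 to 374 CPM at Light 0h and 43.3 to 55.7 CPM at Light 4h. Unlike the members of highest rank, these were measured well above 10 CPM at every time, and their Dark 0h libraries still lay above all others.

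GMUCT reads were found for every member, 78 to 159720 over the 18 libraries with a median of 4398. Of the 200 members, 135 reached a mean of 10 CPM in GMUCT at some time and 5 stayed under 1 CPM at every time. A filter on low counts left 197 members in the test, and 3 were not tested. The filter looks at all 18 GMUCT libraries without regard to the mRNA.

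In GMUCT the members were most often highest at Dark 4h, while their mRNA was highest at Dark 0h by the choice of genes. A delay between the assays was not tested, and at Dark 0h they did not match across 9887 genes (r of -0.04). The median GMUCT level of the members in CPM was 9.17, 9.77 and 7.95 at Light 0h, 4h and 8h. It was 10.6, 17.2 and 13.8 at Dark 0h, 4h and 8h, with 16.8 at Dark 4h when replicate 2 of that time was left out. The highest GMUCT mean was at Dark 4h in 78 members, or 39.0%, against 23.4% of the 20696 genes tested; without replicate 2 of Dark 4h it was 75, against 23.2%. It was at Dark 8h in 38, or 19.0%, against 18.8%, and at Dark 0h itself in 26, or 13.0%, against 25.6%. The lowest GMUCT mean was at Light 8h in 85 members, or 42.5%, against 15.1% of genes tested. Dark 0h GMUCT lay below both Dark 4h and Dark 8h in 120 of 200 members, against 43.4% of genes tested, and in 120 against 42.4% without replicate 2 of Dark 4h.

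**Figure D2:**
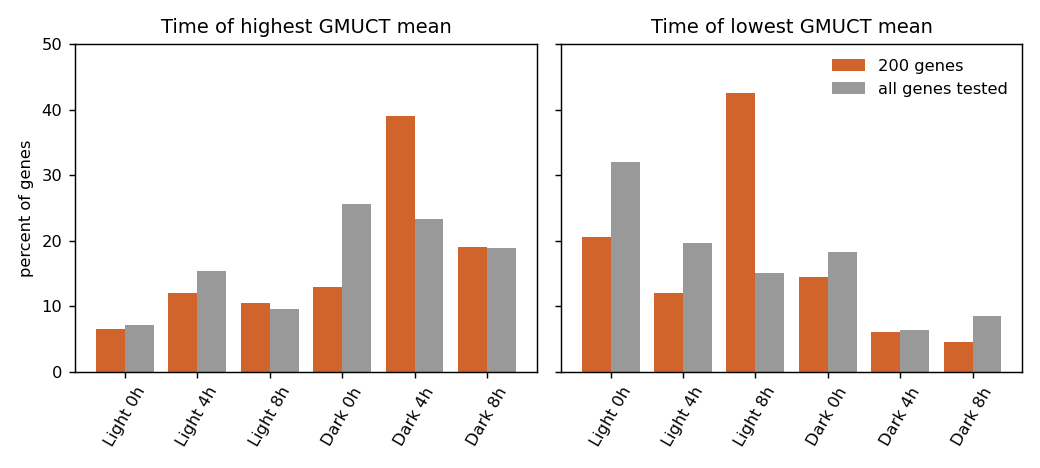
Bars give the percent of genes whose highest (left) or lowest (right) GMUCT mean fell at each of the 6 times, for the 200 genes and for all 20696 genes tested. The 200 genes stand above all genes for a maximum at Dark 4h, 39.0% against 23.4%, and for a minimum at Light 8h, 42.5% against 15.1%.

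GMUCT changed over the 6 times in 137 of the 197 members tested, or 69.5%, at an adjusted p under 0.05 (edgeR quasi-likelihood test, Benjamini-Hochberg over all genes), against 58.4% of all genes tested. Here and below, the genes tested were not matched to the members for GMUCT level. Whether level accounts for differences between these shares was not tested. All GMUCT comparisons below come from that one fit of 18 libraries and share the same 3 Dark 0h libraries, so they are not independent of each other. The 3 GMUCT libraries of Dark 0h lay above the 15 others in 3 members, against 4.48% of genes tested. Those of Dark 4h did so in 9 members, against 1.52%, and without its replicate 2 the remaining pair did so in 16, against 3.27%.

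Dark 0h against Light 8h asks whether decay fragments rose together with mRNA between the last light sample and the first dark one. They were higher at Dark 0h in 22 members, or 11.2%, against 4.67% of all genes tested, and lower in 8, or 4.06%, against 4.01%. The median log2 change was 0.16 in the members and 0.00 over all genes. Calls in this comparison depended on single libraries: 13 members were higher without replicate 3 of Dark 0h (2.06% of all genes), 14 without replicate 1 of Light 8h (2.47%) and 14 without replicate 2 of Light 8h (2.07%), and 3 were lower without replicate 3 of Dark 0h (1.71%) or replicate 2 (2.01%) or 3 (2.19%) of Light 8h. DESeq2 called 14 members lower (5.94% of all genes).

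Among the members with at least 10 CPM of GMUCT at Dark 0h, Solyc04g054500, Solyc09g089930 and gene:Solyc12g096570.1 had the largest increases. Solyc09g089930 had 2.01, 0.760 and 1.12 CPM of GMUCT at Light 8h and 13.0, 12.4 and 35.7 CPM at Dark 0h, a log2 change of 3.87 with a standard error of 0.42 (edgeR adjusted p = 2.94e-05). Member gene:Solyc12g096570.1 rose from 1.00, 0.456 and 1.51 CPM to 13.0, 14.0 and 18.2 CPM, a log2 change of 3.83 ± 0.44 (SE; edgeR adjusted p = 5.17e-05). Solyc04g054500 rose from 2.06, 2.63 and 1.07 CPM to 9.17, 26.8 and 57.5 CPM, a log2 change of 3.91 ± 0.65 (SE; edgeR adjusted p = 0.00139). In each of them the libraries of both times did not overlap, and each call held in every alternative tried. Without replicate 3 of Dark 0h, the highest library, the log2 change was 3.25 for Solyc09g089930 and 3.15 for Solyc04g054500. Solyc04g054500 had its widest spread at Dark 0h in both assays, with 36.7, 33.0 and 10.9 CPM of mRNA, in which replicate 3 was the lowest mRNA library and the highest GMUCT library.

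Fewer decay fragments at Dark 0h than at Light 8h were called in 8 members, or 4.06%, a share near the 4.01% of all genes tested. The mRNA of these members was highest at Dark 0h by the choice of genes. Solyc08g080650 had 25.1, 61.1 and 25.5 CPM of GMUCT at Light 8h and 6.01, 5.12 and 5.71 CPM at Dark 0h, a log2 change of -2.80 with a standard error of 0.43 (edgeR adjusted p = 0.000716), which held in every alternative. Its mRNA went from 1.21, 1.69 and 1.18 CPM to 40.0, 49.5 and 46.5 CPM, so the groups were apart in both assays and in opposite directions. The calls for a further pair were less stable. Solyc10g055800 had 12.5, 21.4 and 15.3 CPM at Light 8h and 4.67, 5.65 and 3.22 CPM at Dark 0h (log2 change -1.93 ± 0.51, SE; edgeR adjusted p = 0.0263). Solyc08g077900 had 311, 394 and 389 CPM at Light 8h and 126, 154 and 92.5 CPM at Dark 0h (log2 change -1.63 ± 0.42, SE; edgeR adjusted p = 0.0228). Leaving out replicate 3 of Dark 0h or replicate 2 or 3 of Light 8h ended both calls, as did leaving out replicate 1 of Dark 0h for Solyc10g055800; over all alternatives the edgeR and DESeq2 adjusted p ran from 0.00178 to 0.125 for Solyc10g055800 and from 0.00119 to 0.114 for Solyc08g077900.

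Between Dark 0h and Dark 4h the members' mRNA fell by the choice of genes, and GMUCT more often rose than fell. It was higher at Dark 4h in 53 members, or 26.9%, against 12.8% of all genes tested, and lower in 18, or 9.14%, against 13.0%. The median log2 change was 0.50 in the members and -0.01 over all genes. Of the 53, 36 had their highest GMUCT mean at Dark 4h, an overlap that the call itself favours. Without replicate 2 of Dark 4h, the library with the most reads placed at several positions, 40 members were higher (8.78% of all genes) and 14 lower (7.90%), 25 of the 40 had their highest GMUCT mean at Dark 4h, and the median log2 change was 0.42 in the members and 0.00 over all genes. When only these times entered the fit, 11 were lower (7.31%).

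The member with the largest increase by the naming rule, gene:Solyc11g007390.1, had 0.701, 1.83 and 2.25 CPM of GMUCT at Dark 0h and 23.3, 19.4 and 5.07 CPM at Dark 4h, a log2 change of 3.24 ± 0.52 (SE; edgeR adjusted p = 0.000429) that held in every alternative. Its mRNA libraries overlapped between times, with 17.0, 8.52 and 12.4 CPM at Dark 0h and 0.905, 12.2 and 1.29 CPM at Dark 4h. Solyc08g029000 had 8.29, 14.5 and 14.0 CPM of GMUCT at Dark 0h and 96.3, 76.4 and 17.0 CPM at Dark 4h, a log2 change of 2.28 ± 0.67 (SE; edgeR adjusted p = 0.0211). Its groups did not overlap, but the call was lost without replicate 1 or 3 of Dark 0h or replicate 1 or 2 of Dark 4h, with adjusted p from 0.00655 to 0.0809 over all alternatives. Its mRNA was uneven as well, at 72.1, 63.5 and 126 CPM at Dark 0h and 2.26, 34.15 and 1.775 CPM at Dark 4h. Dark 8h libraries held 73.2, 15.3 and 9.97 CPM of its mRNA, and Light 8h libraries 24.2, 0.725 and 0.784 CPM.

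Among members with at least 10 CPM of GMUCT at either time and no overlap between them, 3 had the largest decreases from Dark 0h to Dark 4h; their mRNA was lower at Dark 4h by the choice of genes. Larger fitted decreases were called in members of lower level, down to a log2 change of -3.43 in gene:Solyc07g061890.1 (edgeR adjusted p = 0.0019). Member gene:Solyc08g006765.1 had 50.3, 137 and 84.2 CPM of GMUCT at Dark 0h and 12.3, 6.74 and 18.1 CPM at Dark 4h, a log2 change of -2.92 ± 0.38 (SE; edgeR adjusted p = 7.51e-05). Member gene:Solyc01g006670.2 fell from 94.2, 86.0 and 102 CPM to 18.8, 21.2 and 25.4 CPM, a log2 change of -2.19 ± 0.34 (SE; edgeR adjusted p = 0.000284). Solyc06g072430 fell from 14.2, 16.6 and 13.4 CPM to 7.84, 6.67 and 3.61 CPM, a log2 change of -1.38 ± 0.26 (SE; edgeR adjusted p = 0.00121). All 3 calls held in every alternative, and no library of one time overlapped with the other. In Solyc06g072430, GMUCT was highest at Light 4h, at 29.1, 31.1 and 25.2 CPM, which was also the second highest time of its mRNA, at 485, 482 and 444 CPM against 1069, 1033 and 1293 CPM at Dark 0h.

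Dark 0h against Light 0h compares the starts of the dark and light periods as labelled. GMUCT was higher at Dark 0h in 35 members, or 17.8%, against 23.4% of all genes tested, and lower in 48, or 24.4%, against 23.1%, shares near the background. The median log2 change was -0.23 in the members and 0.02 over all genes. With library size alone in place of the TMM scaling, the median of all genes moved to 0.20 and the split to 40 members higher, against 29.9% of all genes, and 36 lower, against 16.6%; no other scaling moved the median of all genes by more than 0.1 in this comparison.

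The 3 members named by the rule as higher at Dark 0h than at Light 0h were highest at Dark 0h in both assays. The size of the rise differed between the assays. Solyc08g006770 had 1.56, 1.58 and 0.561 CPM of GMUCT at Light 0h and 76.8, 84.3 and 141 CPM at Dark 0h, a log2 change of 6.13 ± 0.34 (SE; edgeR adjusted p = 1.46e-09), with 4.52, 3.57 and 3.04 against 74.3, 119 and 104 CPM in mRNA. Member gene:Solyc01g006670.2 rose from 2.42, 1.32 and 5.05 CPM of GMUCT to 94.2, 86.0 and 102 CPM, a log2 change of 4.84 ± 0.39 (SE; edgeR adjusted p = 8.68e-08), or 5.44 without replicate 3 of Light 0h. Member gene:Solyc08g006765.1, whose identifier lies next to Solyc08g006770, had 1 GMUCT read in all 3 Light 0h libraries together, so no fold is given there; against Light 8h, at 7.39, 6.84 and 8.26 CPM, its Dark 0h level was higher by 3.49 ± 0.39 on the log2 scale (SE; edgeR adjusted p = 4.12e-05). In these members the Dark 0h GMUCT libraries lay above all 15 others, and they are the only members of which that was true. Their mRNA and GMUCT both climbed from Light 0h through Light 8h to Dark 0h and fell again at Dark 4h and Dark 8h, as with gene:Solyc08g006765.1, whose mRNA means were 0.678, 2.60, 14.8, 99.5, 27.7 and 4.58 CPM from Light 0h to Dark 8h.

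Other members had low GMUCT at Dark 0h, the time of their mRNA maximum. Solyc11g006470 had 108, 98.5 and 162 CPM of GMUCT at Light 0h and 21.1, 32.0 and 21.8 CPM at Dark 0h, a log2 change of -2.48 ± 0.27 (SE; edgeR adjusted p = 2.65e-06), while its mRNA was 98.1, 54.4 and 66.7 CPM and then 143, 155 and 147 CPM. Its Dark 0h GMUCT libraries lay below all 15 others, and against the mean of the other 5 times the log2 change was -1.78 ± 0.23 (SE; edgeR adjusted p = 2.25e-05). Solyc09g092520 had 21.7, 38.3 and 16.2 CPM at Light 0h and 2.98, 5.80 and 5.59 CPM at Dark 0h, a log2 change of -2.61 ± 0.41 (SE; edgeR adjusted p = 8.65e-05), but its Dark 0h libraries overlapped with those of Light 8h, at 5.58, 4.00 and 5.49 CPM. Member gene:Solyc02g077590.1 fell from 13.2, 9.97 and 11.6 CPM to 1.46, 3.40 and 2.07 CPM, a log2 change of -2.51 ± 0.43 (SE; edgeR adjusted p = 0.00018), and overlapped at Dark 0h with Light 4h and Light 8h. Each of these calls held in every alternative.

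Against the mean of the other 5 times, GMUCT at Dark 0h was higher in 26 members, or 13.2%, against 21.1% of all genes tested, and lower in 45, or 22.8%, against 18.4%. The median log2 change was -0.20 in the members and 0.01 over all genes. The number lower fell to 29 without replicate 1 of Dark 0h (15.4% of all genes) and to 29 without replicate 3 (11.8%). Of the 26 members that were higher, 19 also had their highest GMUCT mean at Dark 0h, an overlap that the call itself favours. Solyc08g080650 had the largest decrease by the naming rule, a log2 change of -2.45 ± 0.38 (SE; edgeR adjusted p = 0.000123); its Dark 0h libraries of 5.12 to 6.01 CPM lay below all others, the nearest at 6.27 CPM in Dark 4h.

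**Figure D3:**
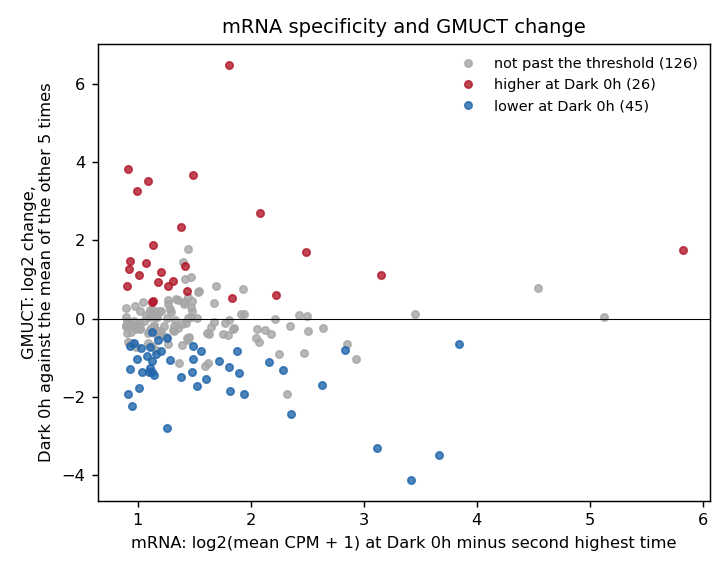
Each point is 1 of the 197 genes tested in GMUCT; the x axis is the mRNA difference in log2(mean CPM + 1) between Dark 0h and the second highest time that chose the genes, and the y axis the GMUCT log2 change of Dark 0h against the mean of the other 5 times. Red points were higher (26 genes) and blue points lower (45) at an adjusted p under 0.05, and 126 were not past it; the highest point, gene:Solyc08g006765.1, rests on 1 GMUCT read at Light 0h.

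Among the members of highest mRNA rank, GMUCT at Dark 0h was above that at Light 8h in some and below it in others. The member of rank 1, gene:Solyc05g052670.1, had 0.251, 0.101 and 0.243 CPM of GMUCT at Light 8h, 1.93, 3.61 and 13.0 CPM at Dark 0h and 10.4, 6.74 and 9.67 CPM at Dark 4h. Its Dark 0h level was higher than at Light 8h by 4.79 ± 0.65 on the log2 scale (SE; edgeR adjusted p = 0.000205), a call that held in every alternative; without replicate 3 of Dark 0h the log2 change was 3.69. Its call against the mean of the other 5 times (log2 change 1.75 ± 0.36, SE; edgeR adjusted p = 0.00115) was lost without replicate 3 of Dark 0h, with a log2 change of 0.65, and its edgeR or DESeq2 adjusted p ran from 8.47e-05 to 0.125 over all alternatives. Its neighbour gene:Solyc05g052680.1 had 1.34, 0.471 and 1.34 CPM at Dark 0h and 3.06, 1.84 and 2.14 CPM at Dark 4h, a log2 change of 1.07 ± 0.54 between them (SE; edgeR adjusted p = 0.16).

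Member gene:Solyc02g070890.3, with 162 to 176 CPM of mRNA at Dark 0h, had 1.99, 2.04 and 1.34 CPM of GMUCT there and 7.53, 3.30 and 5.23 CPM at Dark 4h, a log2 change of 1.49 ± 0.31 (SE; edgeR adjusted p = 0.00276). Member gene:Solyc04g040120.1 rose over the same interval from 0.701, 0.418 and 1.09 CPM to 11.8, 6.35 and 5.49 CPM, a log2 change of 3.33 ± 0.84 (SE; edgeR adjusted p = 0.00925). Both calls held in every alternative, and in both genes the highest GMUCT level came at Dark 4h. Member gene:Solyc01g106620.2 showed the opposite order, with 0.350, 0.314 and 0.425 CPM at Dark 0h, below all other GMUCT libraries, and 9.80, 5.22 and 5.83 CPM at Light 8h (log2 change -4.31 ± 0.63, SE; edgeR adjusted p = 0.000464). Its GMUCT was highest at Dark 8h, at 7.23, 11.6 and 7.24 CPM, when its mRNA was 2.69, 3.24 and 5.56 CPM.

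**Figure D4:**
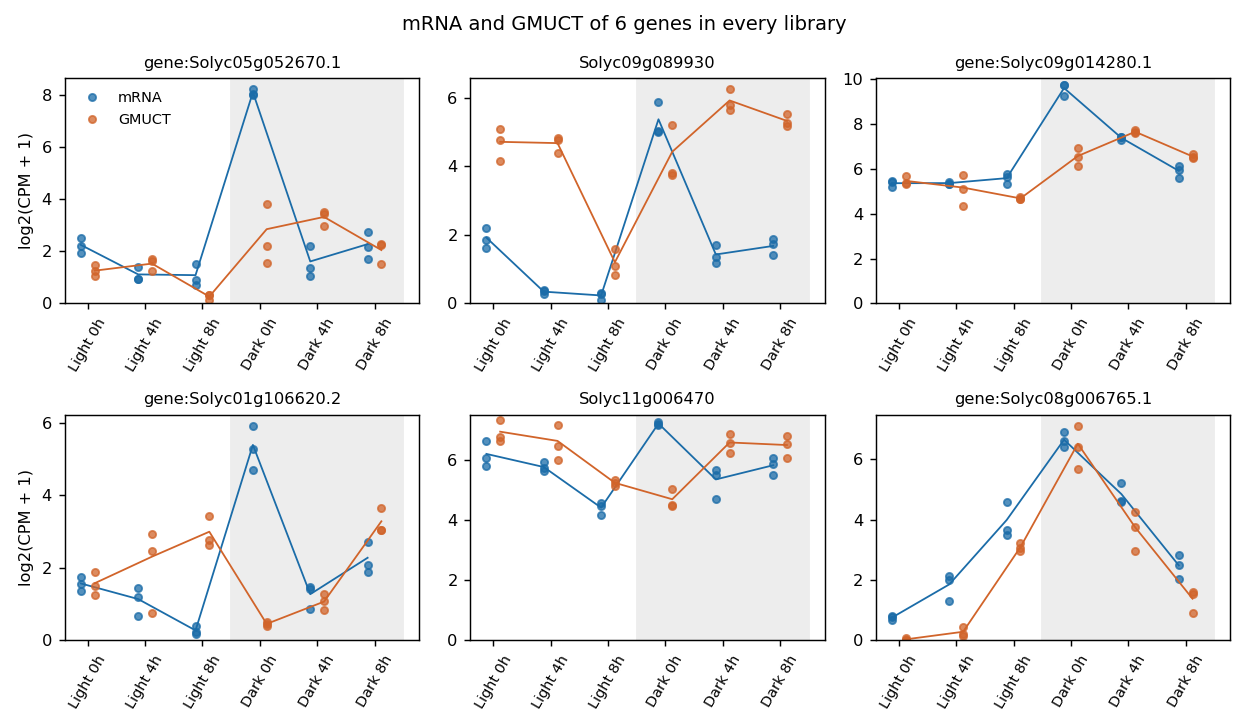
For 6 named genes, each point is 1 library, in log2(CPM + 1), with mRNA in blue and GMUCT in orange; lines join the group means, and grey marks the times labelled Dark. The mRNA maximum at Dark 0h meets a GMUCT maximum at Dark 0h only in gene:Solyc08g006765.1, a GMUCT maximum at Dark 4h in gene:Solyc05g052670.1, Solyc09g089930 and gene:Solyc09g014280.1, and the lowest GMUCT mean in gene:Solyc01g106620.2 and Solyc11g006470.

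A comparison of Dark 4h with the mean of the other 5 times was added after the GMUCT maxima had been seen, so it describes the same pattern and is no independent evidence for it. GMUCT at Dark 4h was higher in 54 members, or 27.4%, against 8.94% of all genes tested, and lower in 14, or 7.11%, against 7.86%. The median log2 change was 0.43 in the members and 0.04 over all genes. With library size alone the median of all genes moved to 0.19 and 73 members were higher, while the share of all genes called higher moved to 21.0%. Without replicate 2 of Dark 4h, 44 members were higher (6.33% of all genes) and 9 lower (5.30%), with a median log2 change of 0.35, and DESeq2 called 23 lower (11.2%).

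Member gene:Solyc12g096570.1 had 33.0, 32.8 and 25.2 CPM at Dark 4h and at most 18.2 CPM in any other GMUCT library, with a log2 change of 2.23 ± 0.25 against the mean of the other 5 times (SE; edgeR adjusted p = 1.42e-05). Solyc09g089930 had 75.1, 54.3 and 48.6 CPM at Dark 4h and 44.5, 34.9 and 37.3 CPM at Dark 8h, a log2 change of 1.88 ± 0.24 (SE; edgeR adjusted p = 4.42e-05). Member gene:Solyc09g014280.1 had 213, 198 and 190 CPM at Dark 4h, 68.1, 91.1 and 123 CPM at Dark 0h and 23.8, 23.9 and 26.2 CPM at Light 8h, a log2 change of 1.84 ± 0.17 (SE; edgeR adjusted p = 1.06e-06). In each of them the Dark 4h libraries lay above all 15 others and the call held in every alternative. Member gene:Solyc09g014280.1 had 851, 610 and 866 CPM of mRNA at Dark 0h, 172, 169 and 155 CPM at Dark 4h and 35.8 to 69.0 CPM at the remaining times, Dark 8h included, and its GMUCT at Dark 8h was 89.6, 98.9 and 90.1 CPM. Its GMUCT was thus well above the Light 8h level at all 3 dark times, with Dark 0h and Dark 8h overlapping, while its mRNA mean at Dark 8h was 59.1 CPM. Solyc09g089930 kept 16.7 to 32.7 CPM of GMUCT at Light 0h and Light 4h, where its mRNA was 0.198 to 3.63 CPM, and dropped to at most 2.01 CPM at Light 8h.

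For the members with the most mRNA, GMUCT followed several courses. Solyc04g007000 had 20.4, 23.5 and 15.4 CPM of GMUCT at Dark 0h and 95.1, 85.1 and 111 CPM at Dark 4h, a log2 change of 2.21 ± 0.37 (SE; edgeR adjusted p = 0.00054) that held in every alternative. Member gene:Solyc08g078670.2 had its highest GMUCT at Light 0h, at 690, 645 and 583 CPM, and 135, 196 and 230 CPM at Dark 0h, a log2 change of -1.97 ± 0.20 (SE; edgeR adjusted p = 1.17e-06), also in every alternative. Solyc04g076880 had 66.9, 45.4 and 39.2 CPM at Dark 0h and group means of 38.8 to 79.1 CPM at the other times; no change over the 6 times passed the test (edgeR adjusted p = 0.283), which does not show that its level was constant.

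Members were unequally spread over the chromosomes named in their identifiers. Identifiers that begin with Solyc08g, for chromosome 8, made up 32 members, or 16.0%, against 7.16% of the 10416 genes with at least 10 CPM at Dark 0h; those of Solyc06g made up 8, or 4.00%, against 8.66%. Of the members, 54 lay within 100 of another member in the identifier's own numbering, and 18 lay in 5 runs of 3 or more. Since no coordinates were used here, adjacency is known only from the numbering; these shares were not tested, and no value for other genes is given beside the counts of neighbours.

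The longest run held Solyc08g080630, Solyc08g080640, Solyc08g080650, gene:Solyc08g080670.1 and Solyc08g080680, 5 of the 6 identifiers between its ends. The sixth, gene:Solyc08g080660.1, also had its highest mRNA mean at Dark 0h, at 9.51 CPM, just below the minimum of 10 CPM, and at most 0.579 CPM at any other time. The mRNA maximum is fixed by the choice of genes, while GMUCT differed along the run. Solyc08g080680 had 26.9, 22.1 and 26.6 CPM of GMUCT at Dark 0h and 10.4, 7.49 and 7.48 CPM at Light 8h, a log2 change of 1.50 ± 0.23 (SE; edgeR adjusted p = 0.000656), whereas Solyc08g080650 was lowest at Dark 0h. Solyc08g080640 had 0.467, 0.471 and 0.121 CPM at Dark 0h and 1.01 to 24.0 CPM at the other times, a log2 change of -4.13 ± 1.03 against their mean (SE; edgeR adjusted p = 0.00481). These calls for Solyc08g080680 and Solyc08g080640 held in every alternative. Other calls of Solyc08g080640 did not: Dark 4h against Dark 0h was lost in 4 of 24 alternatives and Dark 0h against Light 0h in 2. The Dark 0h levels of Solyc08g080640 rest on few reads, so the size of its change is uncertain. Solyc08g080630 and gene:Solyc08g080670.1 had only 162 and 141 GMUCT reads in all, with 0.0584, 0.0523 and 0 CPM and 0.234, 0.0523 and 0.365 CPM at Dark 0h, and no fold is given for them.

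The second run held gene:Solyc02g086452.1, gene:Solyc02g086454.1, gene:Solyc02g086456.1 and gene:Solyc02g086458.1, all 4 identifiers in its span. Their mRNA at Dark 0h was highest in replicate 1 and lowest in replicate 3 for each, at 1575, 1187 and 827 CPM for gene:Solyc02g086452.1 and at 2622, 1717 and 1165 CPM for gene:Solyc02g086454.1. Member gene:Solyc02g086452.1 had 4.14, 45.0 and 20.3 CPM of GMUCT at Dark 0h and 122, 174 and 65.7 CPM at Dark 4h, a log2 change of 2.32 ± 0.70 (SE; edgeR adjusted p = 0.023). The call was lost without replicate 1 or 3 of Dark 0h, without replicate 2 of Dark 4h and in a fit of only the groups compared, with adjusted p from 0.00835 to 0.0837 over all alternatives, and the log2 change was 3.24 without replicate 2 of Dark 0h. For gene:Solyc02g086454.1, gene:Solyc02g086456.1 and gene:Solyc02g086458.1 the log2 changes were 1.91, 1.68 and 1.25 between the same times (edgeR adjusted p of 0.0313, 0.0399 and 0.0432), with the highest adjusted p over the alternatives at 0.106, 0.117 and 0.152. Without replicate 2 of Dark 0h the changes of gene:Solyc02g086454.1 and gene:Solyc02g086456.1 were 2.75 and 2.38. Each lost its call without replicate 1 or 3 of Dark 0h, without replicate 1 or 2 of Dark 4h and in the fit of only the groups compared; gene:Solyc02g086456.1 also lost it with a replicate block, and gene:Solyc02g086458.1 in 13 of 24 alternatives. These 4 may be near-identical copies, which could not be checked without their sequences, so they are not counted here as separate observations. Reads placed at more than one position were left out of their counts.

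**Figure D5:**
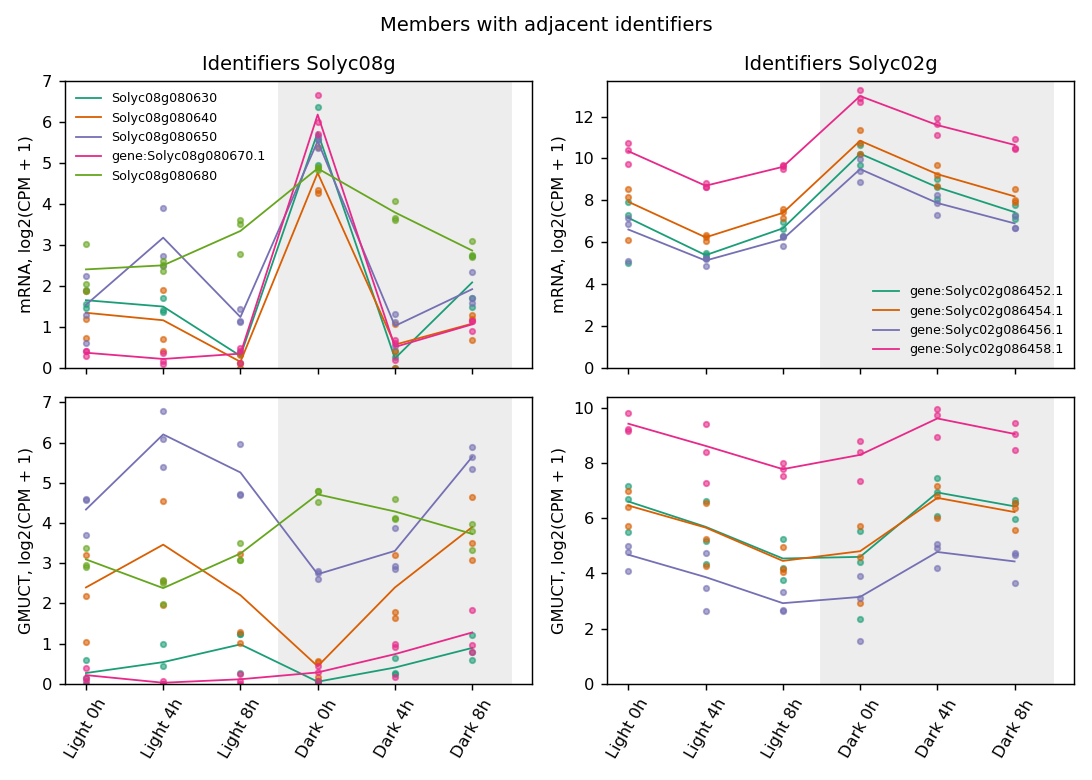
Points are libraries and lines group means in log2(CPM + 1) for the members of the longest runs of adjacent identifiers, with mRNA in the upper and GMUCT in the lower panels; grey marks the times labelled Dark. The mRNA of all 9 genes is highest at Dark 0h, while in GMUCT Solyc08g080680 is highest and Solyc08g080650 and Solyc08g080640 are lowest at Dark 0h, and the Solyc02g genes move in parallel.

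The third run held gene:Solyc01g087800.2, gene:Solyc01g087810.2 and gene:Solyc01g087850.2, 3 of 6 identifiers in its span. Member gene:Solyc01g087800.2 had 256, 200.2 and 257 CPM of mRNA at Dark 0h, and its GMUCT rose from 30.4, 35.5 and 25.0 CPM there to 57.5, 43.7 and 64.2 CPM at Dark 4h, a log2 change of 0.78 ± 0.20 (SE; edgeR adjusted p = 0.00942) that held in every alternative. Member gene:Solyc01g087850.2 had 6.01, 11.5 and 9.05 CPM of GMUCT at Dark 0h and 2.53, 2.09 and 3.25 CPM at Light 0h, a log2 change of 1.57 ± 0.26 (SE; edgeR adjusted p = 0.000151), in every alternative as well. Member gene:Solyc01g087810.2 had 3.21, 3.45 and 1.16 CPM of GMUCT at Dark 0h and passed none of these tests between single times. The GMUCT mean of gene:Solyc01g087800.2 was highest at Dark 4h and that of gene:Solyc01g087810.2 at Dark 8h. For gene:Solyc01g087850.2 the means at Dark 0h and Dark 4h were nearly equal, at 8.86 and 8.80 CPM.

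Expressed as log2 of (GMUCT + 0.5) over (mRNA + 0.5) CPM, the median member stood at -0.15, 0.32 and 0.05 at Light 0h, 4h and 8h, and at -2.34, 0.05 and -0.06 at Dark 0h, 4h and 8h, with 0.09 at Dark 4h without its replicate 2 in GMUCT. Over 12456 genes with at least 10 CPM of mRNA at some time the medians lay between 0.09 and 0.21 at all times. The ratio has the selected mRNA in its denominator, so the low value at Dark 0h follows in part from the choice of genes and was not tested. It ranged there from -7.88 to 2.62 among the members. Member gene:Solyc05g052670.1 went from -1.21 at Light 8h to -5.35 at Dark 0h and 1.89 at Dark 4h, while gene:Solyc01g006670.2 went from -1.30 to 1.03 and then -0.13.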

How the data were processed

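The authors deposited counts of reads per gene for each library, as whole numbers that are not normalized. Per the submitters' processing notes these came from cutadapt, STAR 2.4.2a and HTSeq, with settings, genome build, annotation and strand handling not given in the sources used here, so overlapping genes and near-identical copies could not be told apart. Counter lines that name no gene (5 per file) were left out. CPM and the choice of the 200 genes were computed as described above. GMUCT counts were tested with edgeR 4.0.16 (R 4.3.3): TMM scaling, filterByExpr, one mean per time, the quasi-likelihood F-test and Benjamini-Hochberg adjustment over 20696 genes. The script was tested on simulated data. Standard errors of log2 changes were derived from the F statistic. The members and lists were chosen with earlier results of these data known. Named genes were the 10 of highest rank; in each GMUCT contrast the 3 members with the largest change each way among those past an adjusted p of 0.05, with at least 10 CPM and no overlap between groups; the 5 with the most mRNA; 3 on each side of the rank limit; and members of the 3 longest runs of identifiers. Gene lists by product, leaf markers and promoter motifs could not be used, since 0 of 34075 identifiers matched the reference. Alternatives were RLE scaling, library size alone, no filter, DESeq2 1.42.0, a replicate block, only the groups compared, each library left out, and changes to the rule.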

Additional observations from a re-analysis of the deposited data

How the results depend on the processing

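Of 105 changes called for named genes, 73 kept their call in every alternative; over 2475 alternatives of single genes 2323 kept the call, 152 lost it and 0 reversed. Counts of members called kept within 1.5 times of those reported except as follows. DESeq2 called 14 members lower at Dark 0h than at Light 8h and 23 lower at Dark 4h than at the other 5 times, and 11 were lower at Dark 4h than at Dark 0h when no other group entered the fit; the cause was not tested. With single libraries left out, Dark 0h against Light 8h gave 13 to 28 higher and 3 to 10 lower, Dark 0h against the mean of the other 5 times 29 to 49 lower, and Dark 4h against the mean of the other 5 times 9 to 17 lower. Changes to the rule kept 160 to 197 of the 200 genes, and leaving out 1 mRNA library 167 to 199. Over these, each GMUCT library left out and TMM-scaled GMUCT, 61 to 88 of 200 genes had their GMUCT maximum at Dark 4h. With a changed rule or an mRNA library left out, the genes counted were those chosen anew. Whether replicate numbers pair the GMUCT libraries is not given by the labels, and the data show no pairing common to all times: same-numbered libraries of different times had correlations of -0.50 to 0.50, with 19 of 45 above 0.1, and 9 of 18 libraries were closest to their own number. Of 15 pairs of times, Light 0h and Dark 0h alone had all 3 correlations above 0.1. With the replicate number as a block, 51 members were higher (13.2% of all genes) and 17 lower (13.3%) at Dark 4h than at Dark 0h. For Dark 0h these counts were 24 (5.12%) and 10 (4.84%) against Light 8h, 35 (23.3%) and 47 (23.4%) against Light 0h, and 25 (20.8%) and 42 (18.7%) against the other 5 times. With 3 libraries a group, outlying libraries were not searched for, and GMUCT levels under about 1 CPM rest on few reads.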
